A study of Homo sapiens with 12 samples.

Results

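The clustered protocadherins of chromosome 5 comprised 53 protein-coding genes, found by symbol in the RefSeq annotation of GRCh38.p14 among 15819 protein-coding gene starts that could be tested. They fell into 13 PCDHA genes, 2 PCDHAC genes, 16 PCDHB genes, 12 PCDHGA genes, 7 PCDHGB genes and 3 PCDHGC genes, from the PCDHA1 start to the end of the PCDHG genes at chr5:140786140-141512975, a span of 727 kb. A member counted as called in a list of open-chromatin peaks if a peak of that list overlapped the 2 kb on either side of its start.

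The samples were 12 cultures of U2OS, a human osteosarcoma cell line, profiled by ATAC-seq, an assay that marks open chromatin by cutting it with the Tn5 transposase. Of the 6 groups of 2 samples, 3 formed the FOXA2 set: cells labelled WT, cells of genotype Tet-on FOXA2 (full length, labelled FOXA2FL) and cells of genotype Tet-on FOXA2dCTD (lacking the C-terminal domain, CTD). The SOX2 set held a WT group whose label also names the SOX2 cell line, Tet-on SOX2 cells and Tet-on SOX2FOXA2CTD cells, which carry SOX2 fused to the CTD of FOXA2. All constructs were Flag-tagged, per the series' text, and were switched on by doxycycline (500 ng/ml, 4 days). The genotype and treatment fields of both WT groups read NA while their protocol text is that of the treated cells, so whether they received doxycycline is not known. The labels do not say whether a line was a single clone. FOXA2 and SOX2 are transcription factors known as pioneer factors because they can bind closed chromatin, and U2OS cells are not neurons.

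Clustered protocadherins are adhesion proteins of the cell surface that give single neurons a molecular identity, since each neuron switches on its own small choice of them. Every variable exon has a promoter of its own. In the alpha and gamma groups it is spliced to constant exons shared by the group, whereas the beta genes have a single coding exon. Most of these promoters carry a conserved sequence element with the core CGCT, at which CTCF and cohesin can join the promoter to distant enhancers, and the C-type genes (PCDHAC1, PCDHAC2, PCDHGC3, PCDHGC4 and PCDHGC5) are known for broader use than the others.

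The sequences shown are those of members called most often and of some of the members never called. The letters CGCT lay on the gene's own strand in 46 of 47 member promoters in the RefSeq table (250 bases before to 50 bases after the start, GRCh38.p14), against 65% of all 15813 promoters in that table. The longer GNCGCT was found on that strand in 44 of 47 (93.6%), against 36.1% of all promoters. On both strands together these shares were 95.7% and 55.2%. Only PCDHA9 had no CGCT in this window, and 6 members had no entry. Shown first are 30 bases around CGCT (in capitals), 5′ to 3′ on the plus strand, from the 8 members called in 6 or more of the 9 lists.
PCDHGC3: ggctgggactctgtgtgcCGCTgtcggcca
PCDHAC1: aagcctagaaggtgtggtCGCTcacgttca
PCDHAC2: ggctgagcagtccgggttCGCTgtccgcca
PCDHA4: tttggagccacatgatgtCGCTctttacca
PCDHA5: ctttcatccacatgatgtCGCTggacaccg
PCDHA11: gttttaggcgcaaggtgtCGCTctttactt
PCDHB2: ggaagagacgcggggtggCGCTgcagcctt
PCDHB16: agtgagaacgcgtggtggCGCTgcaggtta
The next were called in no list and are a selection from the never-called members with such a window.
PCDHB3: caagcgaacgcatggtggCGCTgttgacta
PCDHB4: aatcaagacgcagggtggCGCTgcaggcta
PCDHB7: ccacaaaacgcaaggtggCGCTgctggcta
PCDHGA2: atttaggcctctgagcgtCGCTgttgacca
PCDHGA5: ggttaggactctgagtgtCGCTgttgacca
PCDHGB2: gagaaaacctctgagcgtCGCTgttggtca
PCDHGC4: ttggctgagcccgggagcCGCTgtctgcca
The first and the last of these 15 windows lie at chr5:141475878-141475907 and chr5:141484950-141484979. Where a promoter held several CGCT, the one most like that of another member is shown. The closest window of another member matched at 16 of 30 bases for PCDHAC1, 18 for PCDHAC2, and 21 for PCDHA11 and PCDHGC4. For the other windows shown it matched at 23 to 28. The PCDHAC2 window reads TTCGCT and so lacks GNCGCT. The letters CGCT in a window do not by themselves show the conserved element.

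The windows shown were chosen for likeness to another member's, so that their likeness is a description of that choice as well as of the promoters. Of 10 PCDHA windows, 9 read gatgtCGCT, among them PCDHA4 and PCDHA5. PCDHA11 read ggtgtCGCT. Of 14 PCDHB windows, 12 read gtggCGCTg, which PCDHB2 and PCDHB16 shared with the never-called PCDHB3, PCDHB4 and PCDHB7. No never-called PCDHA gene had a window to compare. Of 11 PCDHGA windows, 10 had gt right after the core. The core started a median of 57 bases before the gene start, from 95 before to 3 after. The forkhead motif TGTTTAC was in 0 of 47 member promoters on either strand (2.68% of all promoters). The SOX motif CATTGT was in 7 on either strand (14.9%, against 7.9%). Such matches describe letters in a window of 300 bases and show no binding.

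The lists differed in kind, and 2 features of the lists bear on every result. In the FOXA2 set every library came with its own list, with 19862 peaks for the library labelled wild type, replicate 1 (wild type 1 below) and 25088 for replicate 2 (wild type 2), 161136 and 57946 for full-length FOXA2, and 78820 and 146854 for FOXA2 without CTD. In the SOX2 set a group was covered by 1 list, made from a pair of inputs, with 48142 peaks (wild type), 65628 (SOX2) and 75544 (fusion) at a global IDR (irreproducible discovery rate) of at most 0.05. Wild type 2 and full-length 2 differed from the other lists in having no mitochondrial peak and lowest −log10 p values of 5.43 and 5.22, against 2.01 to 3.44 in the rest of that set. The number and threshold of peaks therefore moved with the group, read depth is unknown, and the part of both in the results was not tested beyond the settings given below. With 2 libraries against 2 the smallest two-sided exact permutation p is 0.333, so that calls were counted and not tested. In the SOX2 set, with 1 list a group, comparisons between groups had no replicate check beyond the IDR within each list.

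The second feature is a peak inside the FOXA2 gene (chr20:22580998-22585490), where the construct's own gene can be looked at. Both libraries labelled wild type in the FOXA2 set had a peak at chr20:22581848-22582527, of 5.19-fold and 14.7-fold over the background of their own library. All 4 FOXA2 construct libraries had a peak there too, from 5.76-fold to 44.3-fold, and so did the fusion list. The wild-type and SOX2 lists of the SOX2 set had none at that position. The SOX2 gene had a called peak in all 3 lists of that set, with a highest −log10 p of 16.2 in the wild type, 22.7 with SOX2 and 15 with the fusion. The results for the FOXA2 constructs are therefore given for the libraries labelled wild type and also with the wild-type list of the SOX2 set as the control. SPARC, RUNX2 and VIM, made by bone-forming and mesenchymal cells, were called in 9, 7 and 7 lists, and the osteoblast genes BGLAP, ALPL and IBSP in 2, 0 and 0. Of the markers of other cell types that could be tested, the epithelial gene KRT8 and the neuronal gene MAP2 were called in 9 lists each, the neuronal genes SYN1, NEUROD1 and RBFOX3 in 4, 3 and 1, the liver genes AFP and ALB in 1 and 0, and the blood gene PTPRC in 0.

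A smaller share of clustered protocadherin starts than of all gene starts had a peak, in each of the 9 lists. In the libraries labelled wild type, 4 of 53 members were called in replicate 1 and 1 in replicate 2, that is 7.55% and 1.89%, where 37.8% and 36.3% of all gene starts were called. Full-length FOXA2 libraries called 21 and 6 members (39.6% and 11.3%, against 68.1% and 57.6% of all starts). Libraries with FOXA2 without CTD called 8 and 25 (15.1% and 47.2%, against 52.7% and 68.1%). In the SOX2 set 13 members were called in the wild type, 18 with SOX2 and 16 with the fusion, that is 24.5%, 34% and 30.2%, against 57.3%, 59.6% and 55.1% of all starts. Neighbouring member starts lay a median of 6349 bp apart. Peaks per Mb in the cluster were below those over chromosome 5 in 3 of the 9 lists, namely wild type 2 (1.38 against 5.99), full-length 2 (11 against 16.4) and CTD deletion 1 (17.9 against 22.2). They were above in wild type 1 (8.25 against 5.97), full-length 1 (57.8 against 54.4), CTD deletion 2 (60.5 against 49) and the 3 lists of the SOX2 set (23.4, 31.6 and 31.6 against 16.1, 23.2 and 27.4).

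**Figure D1:**
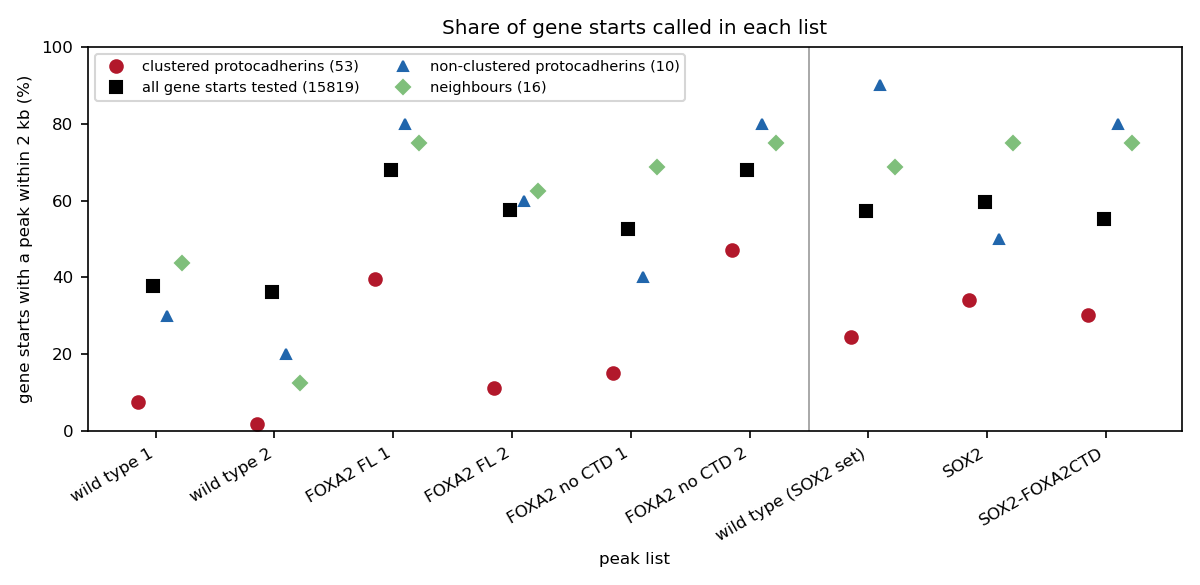
Percent of gene starts with a peak within 2 kb (y axis) in each of the 9 lists (x axis) for the 53 clustered protocadherins, all 15819 gene starts, the 10 non-clustered protocadherins tested and the 16 neighbouring genes. The clustered members lie below all gene starts in every list, from 1.89% in wild type 2 to 47.2% in FOXA2 without CTD 2.

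In the FOXA2 set, the 2 libraries with the longest lists held most of the members' calls. Of 31 members called anywhere in that set, 21 were called only in full-length 1 or in CTD deletion 2, of which 16 were in 1 of them and 5 in both. The share of all gene starts called only in these 2 libraries was not counted, so whether members differ in this from all genes is not known. When every list was limited to its 19862 strongest peaks, the 6 libraries called 4, 1, 3, 0, 3 and 3 members (wild types, full length, CTD deletion). The same limit left 37.8%, 31.5%, 32.6%, 34.4%, 27.1% and 33.6% of all gene starts called. At equal length no construct library thus called more members than wild type 1, while full-length 1 and both CTD deletion libraries called more than wild type 2. At a common −log10 p of at least 5.43 the 6 libraries called 3, 1, 6, 6, 5 and 8 members, beside 34.8%, 36.3%, 44.4%, 57.5%, 34.9% and 46.8% of all starts. With 48142 peaks a list, the SOX2 set called 13, 11 and 11 members, against 57.3%, 56.3% and 47.7% of all starts.

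Of the 31 members called in the FOXA2 set and the 21 called in the SOX2 set, 18 were called in both. The share of all gene starts called in both sets was not counted. Of 53 members, 6 were called in 7 or more lists, 9 in 3 to 6, 19 in 1 or 2 and 19 in none. Among all gene starts tested, 22.6% were called in all 9 lists and 20.8% in none. The libraries labelled wild type called 4 and 1 members, so that reaching 6 lists largely depends on calls in the SOX2 set. All 8 members called in 6 or more lists were called in all 3 lists of that set. These were the C-type genes PCDHGC3, PCDHAC1 and PCDHAC2, the alpha genes PCDHA4, PCDHA5 and PCDHA11, and the beta genes PCDHB2 and PCDHB16. In that set 36 members had an entry in at least 1 list whatever its IDR, and 12 members had no entry of any kind in any of the 9 lists.

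**Figure D2:**
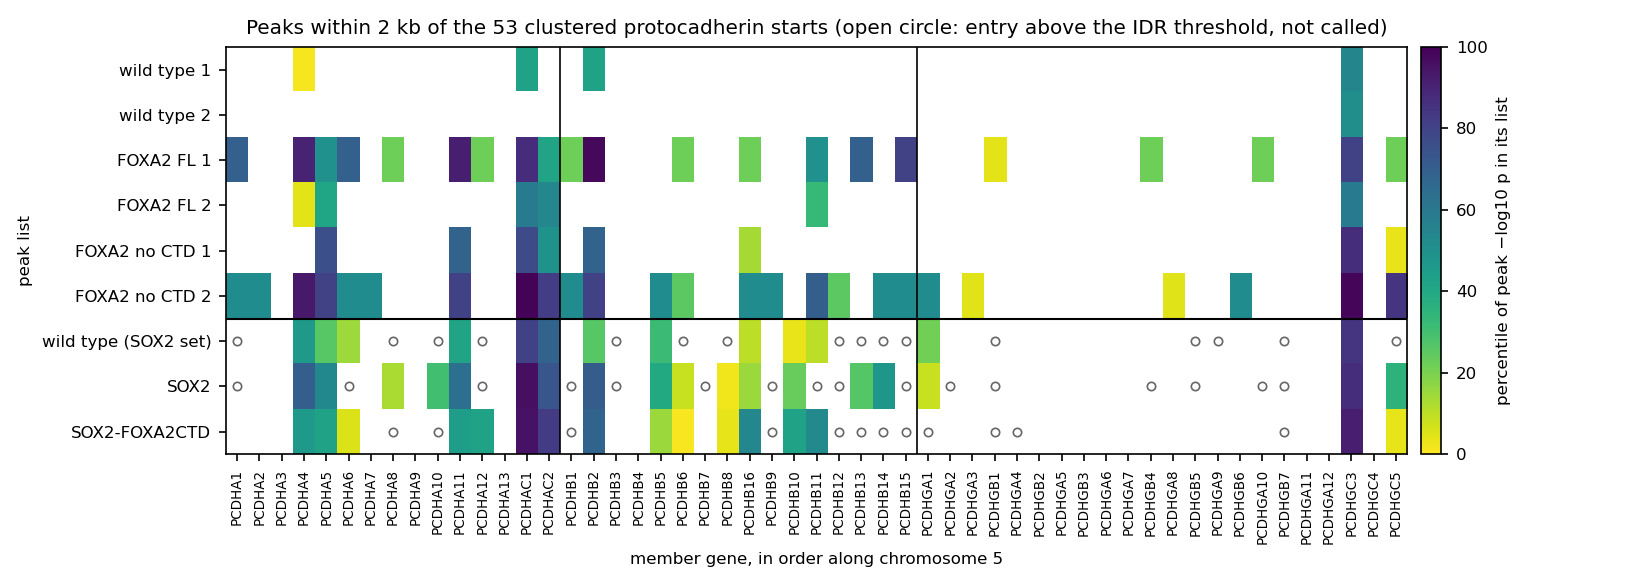
Each column is one of the 53 members in order along chromosome 5 and each row a peak list; colour gives the percentile of the strongest peak within 2 kb of the start among all peaks of that list by −log10 p, and open circles mark SOX2-set entries above the IDR threshold. PCDHGC3 is called in 9 lists and PCDHAC1 in 8, while most PCDHGA and PCDHGB columns are empty.

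PCDHGC3, a C-type gamma gene, was the only member called in every list. Its peak was 5.62-fold and 5.93-fold over background in wild types 1 and 2, 4.42-fold and 7.16-fold with full-length FOXA2, and 5.64-fold and 8.06-fold with FOXA2 without CTD. The groups overlapped on this scale, which is relative to each library's own background. In the SOX2 set its −log10 p was 24.4 in the wild type, 24.7 with SOX2 and 20.3 with the fusion, the lower of 2 inputs in each list. That placed it at percentiles 84.9, 87.1 and 91.7 of those lists, which differ in length and threshold. Its neighbour PCDHGC4 was called in no list. PCDHGC5 was called in 5 lists, at 2.76-fold in full-length 1, 2.6-fold in CTD deletion 1 and 5.06-fold in CTD deletion 2, and with SOX2 (−log10 p of 9.64) and the fusion (5.88). The 3 PCDHGC genes are neighbours that share constant exons, and their calls ranged from every list to none.

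PCDHAC1 and PCDHAC2, the C-type alpha genes, differed in the libraries labelled wild type. PCDHAC1 had a peak of 5.22-fold in wild type 1 and none in wild type 2, then 4.97-fold, 7.16-fold, 4.77-fold and 8.4-fold in the 4 FOXA2 construct libraries, in the order full length 1 and 2, CTD deletion 1 and 2. Its −log10 p in the SOX2 set was 21.9 in the wild type, 36 with SOX2 and 23.5 with the fusion. PCDHAC1 was thus open in at least 1 library of every group. PCDHAC2 had no peak in either library labelled wild type and was called in all 4 construct libraries, at 3.24-fold, 6.82-fold, 3.6-fold and 4.5-fold. In the wild-type list of the SOX2 set PCDHAC2 was called, with a −log10 p of 16.8, beside 17.5 with SOX2 and 15.9 with the fusion. The C-type alpha promoters had a median GC content of 64.5%, near the 62.7% over all promoters, while the 11 other PCDHA promoters in the table had a median of 36%.

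Among the 13 other alpha genes, 10 were called in at least 1 list, and PCDHA4, PCDHA5 and PCDHA11 were called most. PCDHA4 was called in wild type 1 at 3.48-fold, near the bottom of that list (percentile 1.23), and in full-length 1 at 5.32-fold (percentile 90.4). It was at 4.43-fold in full-length 2 and 6.25-fold in CTD deletion 2, and had no peak in wild type 2 and CTD deletion 1. The call at PCDHA4 therefore differed between the 2 libraries of 2 groups. PCDHA5 was called in the 4 construct libraries only, at 3.31-fold, 6.14-fold, 4.74-fold and 4.68-fold. PCDHA11 was called in full-length 1 (5.52-fold) and in both CTD deletion libraries (4.34-fold and 4.68-fold). In the SOX2 set all of these were called in the wild-type list, PCDHA4 with a −log10 p of 11.7, PCDHA5 with 8.9 and PCDHA11 with 11. PCDHA6 was called there as well (7.69). PCDHA3, PCDHA9 and PCDHA13, 3 of these 13 genes, were called in no list, beside 20.8% of all gene starts.

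The beta genes, each with a single coding exon, differed among themselves. Of 16, 13 were called in at least 1 list and 3 (PCDHB3, PCDHB4 and PCDHB7) in none, beside 20.8% of all gene starts called in none. PCDHB2 was called in wild type 1 at 5.22-fold, in full-length 1 at 7.18-fold, and in the CTD deletion libraries at 4.34-fold and 4.68-fold. It had no peak in wild type 2 and full-length 2, the 2 lists without mitochondrial peaks. PCDHB16 was called at 2.76-fold in full-length 1 and at 2.97-fold and 3.51-fold in the CTD deletion libraries. PCDHB11 was called in both full-length libraries (3.31-fold and 5.8-fold) and in CTD deletion 2 (4.09-fold). The wild-type list of the SOX2 set held PCDHB2 (−log10 p of 8.9), PCDHB5 (9.64), PCDHB16 (7.27), PCDHB11 (7.27) and PCDHB10 (6.52), the last of which was called in no list of the FOXA2 set. Of the 13 members called in that wild-type list, 10 lay below the median −log10 p of the list's peaks.

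The PCDHGA and PCDHGB genes were the least open group. Of 19, 12 were called in no list (20.8% of all gene starts), and they made up 12 of the 19 never-called members. These were 8 PCDHGA genes, namely PCDHGA2, PCDHGA4 to PCDHGA7, PCDHGA9, PCDHGA11 and PCDHGA12, and 4 PCDHGB genes, namely PCDHGB2, PCDHGB3, PCDHGB5 and PCDHGB7. Only PCDHGA1, the first gene of the gamma array, was called in more than 1 list: in CTD deletion 2 (3.51-fold), in the wild-type list of the SOX2 set (−log10 p of 8.43) and with SOX2 (7.1). No PCDHGA or PCDHGB gene was called in either library labelled wild type, in full-length 2, in CTD deletion 1 or with the fusion. Read sharing between copies can enter here: 13.5% of the 50-base words of the PCDHGB4 and PCDHGB5 promoters were shared. In these 300-base promoters, 4 of the 47 members shared any such word with another member. The rest of the 2 kb windows was not examined for shared sequence.

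Position and base composition were described for all members called. Over 112 calls of a member in a list, the median summit lay 85 bp after the gene start, with 25% at or before −50 bp and 25% at or after 216 bp, and 88.4% lay within 500 bp of the start, against 79.7% over all gene starts. In the PCDHA genes the median was 363 bp after the start, that is inside the transcribed part. It was 29 bp after in the PCDHB genes, and in the PCDHGC genes the median offset was −21 bp. Member promoters had a median GC content of 39.7% (32.3% to 66%), against 62.7% over all promoters, and a median ratio of observed to expected CpG of 0.593, against 0.762. The 6 members called in 7 or more lists had a median GC content of 52.2%, the 6 called in 3 to 6 lists 37%, the 19 called in 1 or 2 lists 38% and the 16 never-called members with an entry had 41%. Member promoters thus had a lower GC content than all promoters, and its part in the difference in calls was not tested. GC content ranged from 33.7% (PCDHA5) to 66% (PCDHAC1) in the members called in 7 or more lists. In the never-called members with an entry it ranged from 32.3% to 60.7% (PCDHGC4). Whether GC content among members went with the number of lists was not tested.

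**Figure D3:**
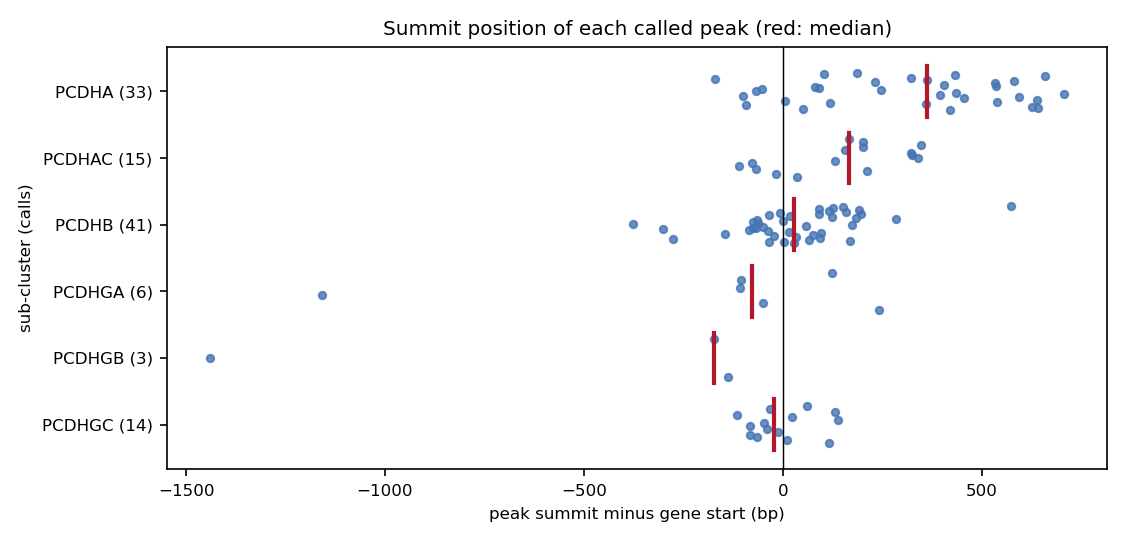
Each point is 1 call of a member in 1 list, by the distance of the peak summit from the gene start (x axis, bp, positive within the gene) and by sub-cluster (y axis, number of calls in brackets); red bars are medians. The PCDHA summits lie farther into the gene, with a median of 363 bp, than the PCDHB summits, with a median of 29 bp.

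With full-length FOXA2, 3 members were gained and 0 lost. A gained member has a peak in both construct libraries but in neither wild type, and a lost member the reverse. The 3 were PCDHA5, PCDHAC2 and PCDHB11, or 5.66% of members, against 12.9% of all gene starts (lost: 0.0253% of all gene starts). Without full-length 2 the count was 17 of 53 members, a larger share than over all gene starts (3817 of 15819, or 24.1%). Without wild type 1 it was 5 of 53, a smaller share than over all gene starts (20%). Against the wild-type list of the SOX2 set, in which all 3 were called, 0 members were gained and 3 lost, beside 7.22% and 2.66% of all gene starts. Lists cut to equal length gave 0 gained members and 1 lost, PCDHGC3, beside 1.71% and 1.34% of all gene starts.

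With FOXA2 without CTD, 5 members were gained and 0 lost. They were PCDHA5, PCDHA11, PCDHAC2, PCDHB16 and PCDHGC5, or 9.43%, beside 9.72% of all gene starts gained and 0.0443% lost. The share of members was near the background share. Without CTD deletion 1 the count was 21 of 53 members, a larger share than over all gene starts (3807 of 15819, or 24.1%). The wild-type list of the SOX2 set held 4 of the 5, so that 1 member was gained and 1 lost against it, beside 6.23% and 2.35% of all gene starts. Lists cut to equal length gave 0 gained and 0 lost, beside 0.923% and 2.95% of all gene starts.

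Between the FOXA2 constructs, 0 members were called in both libraries of one and in neither of the other, in either direction, where this held for 0.948% of all gene starts with the full-length protein and for 0.803% with the CTD deletion. At equal list length the counts were 0 for the full-length protein and 2 for the CTD deletion (2.98% and 1.5% of all gene starts). All 6 calls of full-length 2 were among the 21 of full-length 1, and all 8 of CTD deletion 1 were among the 25 of CTD deletion 2. The shared calls were 28.6% of those of full-length 1 and 32% of those of CTD deletion 2. Over all gene starts these shares were 81.6% and 73.6%. Without full-length 2, 6 of 53 members were full-length only, beside 900 of 15819 gene starts (5.69%). Without CTD deletion 1, 10 of 53 were CTD deletion only, beside 860 of 15819 gene starts (5.44%). Both constructs are compared with the same wild-type libraries. In all, 4 of 53 members were called in every FOXA2 construct library, namely PCDHGC3, PCDHAC1, PCDHAC2 and PCDHA5. The share of all gene starts called in every one of these libraries was not counted.

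With SOX2, 7 members were gained and 2 lost relative to the wild-type list of that set. The gained members were PCDHA8, PCDHA10, PCDHB6, PCDHB8, PCDHB13, PCDHB14 and PCDHGC5, or 13.2%, against 8.57% of all gene starts, and the lost members PCDHA6 and PCDHB11, against 6.17%. PCDHB14 moved farthest, from a −log10 p of 4.07 in the wild type, not called, to 11.3 with SOX2. PCDHGC5 was at 3.72 and 9.64, and PCDHB8 at 5.98 and 6.42. For all 7 gained members the wild-type list held an entry above the IDR threshold, as the SOX2 list did for both lost members, so that 0 were gained and 0 lost where no entry at any IDR was allowed (0.74% and 0.613% of all gene starts). At equal list length 3 were gained and 5 lost (5.66% and 9.43% of members, beside 6.85% and 7.79% of all gene starts). PCDHB11 went from 7.27 in the wild type to 3.13 with SOX2, but 1 of the 2 SOX2 inputs was at 12.4 there.

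With the fusion of SOX2 and the FOXA2 CTD, 4 members were gained and 1 lost. PCDHA12, PCDHB6, PCDHB8 and PCDHGC5 were gained, or 7.55% beside 7.48% of all gene starts, and PCDHGA1 was lost (9.66% of all gene starts). PCDHA12 stood at a −log10 p of 2.43 in the wild type, 4.36 with SOX2 (neither called) and 8.77 with the fusion. PCDHGA1 stood at 8.43, 7.1 and 3.62 in the same order. All 5 had an entry on the side without a call, and 0 were gained or lost where no entry at any IDR was allowed (1.21% and 0.575% of all gene starts). At equal list length 1 was gained and 3 lost (1.89% and 5.66% of members, beside 5.03% and 14.6% of all gene starts).

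Set against each other, the SOX2 and fusion lists shared 13 of the 18 and 16 members they called, or 72.2% and 81.2%. Over all gene starts these shares were higher, at 83.3% and 90.2%. PCDHA6, PCDHA12 and PCDHB11 were called with the fusion and not with SOX2 (5.41% of all gene starts). PCDHA8, PCDHA10, PCDHB13, PCDHB14 and PCDHGA1 were called with SOX2 and not with the fusion (9.99%). Both lists are compared with the same wild-type list. PCDHB13 had a −log10 p of 8.71 with SOX2 and 1.83 with the fusion, while PCDHA8 was at 7.34 and 3.88. All 8 members had an entry in both lists, and 0 differed where no entry at any IDR was allowed (0.335% of all gene starts were then fusion only and 0.215% SOX2 only). At equal list length 4 members were called with the fusion only and 4 with SOX2 only (7.55% of members each, beside 4.14% and 12.8% of all gene starts).

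**Figure D4:**
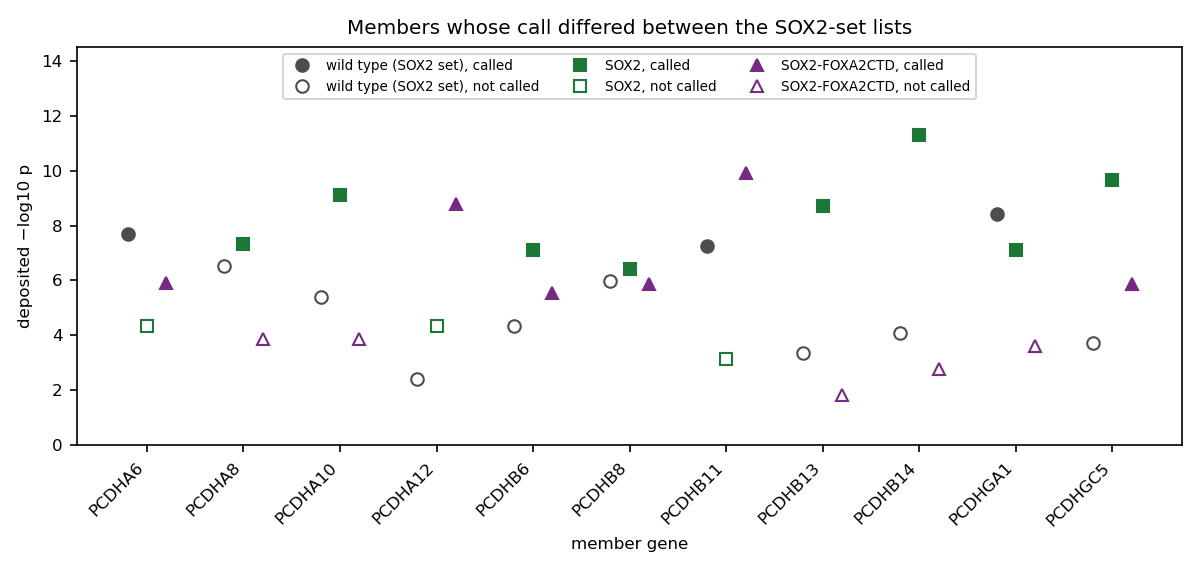
Deposited −log10 p (y axis) of the entry within 2 kb of the start in the 3 SOX2-set lists for the 11 members whose call differed from the wild type; filled symbols are called at a global IDR of at most 0.05 and open symbols are not. Every member has an entry in all 3 lists, and PCDHB14 spans from 2.76 with the fusion to 11.3 with SOX2.

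Regions away from promoters were followed over the cluster and 200 kb on either side. A region counted as distal if it lay over 2 kb from every protein-coding gene start, which leaves starts of non-coding RNA genes among the distal regions. As background, known enhancers of the alpha genes lie in and beyond the alpha constant exons, and known enhancers of the beta genes lie beyond the gamma genes. No coordinates of these were used here. The union of the 9 lists held 95 regions, of which 47 were distal, 21 of them in 1 list only and 9 in 5 or more. The 39 kb between the PCDHA genes and PCDHB1 held 8 distal regions, of which 5 were in 1 list only and 1 was in 5 or more. The 81.1 kb between PCDHB and PCDHGA1 held 0. The 159 kb from the PCDHGA1 to the PCDHGC5 start held 1, but the 2 kb on either side of its many member starts cannot count as distal.

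**Figure D5:**
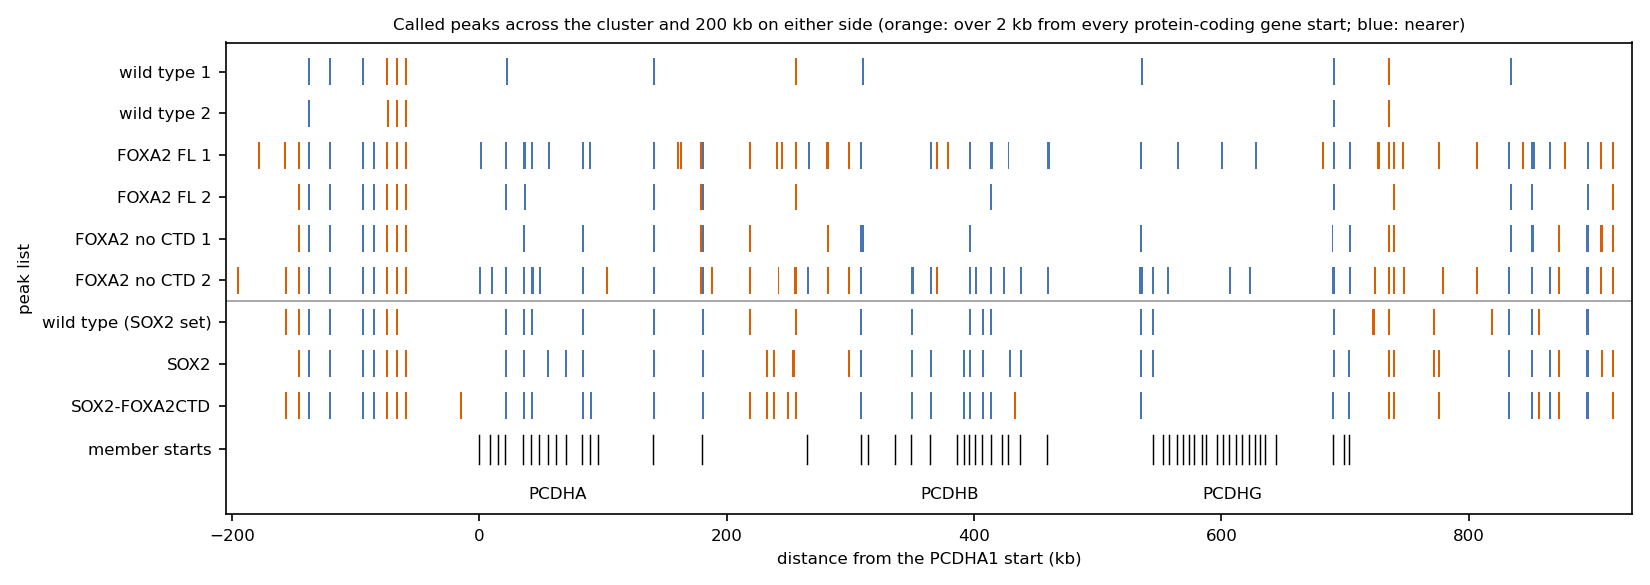
Called peaks in each of the 9 lists (rows) by distance from the PCDHA1 start (x axis, kb), orange where over 2 kb from every protein-coding gene start and blue where nearer, drawn at a fixed minimum width; ticks at the bottom are the 53 member starts. The PCDHG array between the first PCDHGA gene and the PCDHGC genes has few peaks in any list, and 3 orange peaks upstream of PCDHA1 recur in nearly all lists.

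All 6 libraries of the FOXA2 set had distal peaks at the 3 vault RNA genes upstream of PCDHA1, which encode short RNAs of the vault particle. The regions at VTRNA1-1 (chr5:140710507-140711606) and VTRNA1-2 (chr5:140718452-140719302) were called in all 9 lists, from 3.47-fold to 6.19-fold and from 4.64-fold to 6.48-fold in the FOXA2 set. The region at VTRNA1-3 (chr5:140725675-140726812) was called in 8, since the wild-type entry of the SOX2 set had inputs at −log10 p of 26 and 4.62 and missed the IDR threshold. Another 2 regions were called in all 3 lists of the SOX2 set inside or beside the cluster. The first, at chr5:141039541-141041525 before PCDHB1, had a −log10 p of 10.1 in the wild type, 13.6 with SOX2 and 11.5 with the fusion. The other, at chr5:141520829-141521939 in DIAPH1, a formin gene just beyond the gamma genes, had 24.6, 41.1 and 34.9, and was called in 5 of 6 libraries of the FOXA2 set. A region at chr5:140638993-140640211 in TMCO6, near CD14, was called in the same 3 lists.

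Of 41 distal regions in the FOXA2 set, 4 were gained with full-length FOXA2 and 0 lost (9.76%, beside 8.66% of all distal regions gained and 0.163% lost). With FOXA2 without CTD, 7 were gained and 0 lost (17.1%, beside 8.66% and 0.0555%), and the 4 gained with full-length FOXA2 were among them. The first of these lay between the alpha promoters, at chr5:140963657-140964351, 2125 bp before the PCDHAC2 start, and was called at 3.33-fold and 6.82-fold with full-length FOXA2 and at 4.48-fold and 4.21-fold with FOXA2 without CTD. It had no entry in any other list, the wild-type list of the SOX2 set included. A region past the PCDHAC2 start, at chr5:141003994-141004567 inside the PCDHA genes, was gained with FOXA2 without CTD (3.04-fold and 4.09-fold) and was also called in full-length 1 (3.31-fold). In the SOX2 set that place was called in the wild type (−log10 p of 16.9) and with the fusion (8.87) and not with SOX2 (6.42).

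The other gained regions of the FOXA2 set lay in the flanks. The region in TMCO6 had no peak in either library labelled wild type and 3.65-fold to 8.52-fold peaks in the 4 construct libraries, yet a −log10 p of 24.1 in the wild-type list of the SOX2 set. The regions at chr5:141657962-141658210, in ARAP3, and at chr5:141692045-141692649 were gained with FOXA2 without CTD only by this rule, and the latter was called in full-length 1 as well. The region at chr5:141701857-141702528 was called in all 4 construct libraries at 3.81-fold to 6.82-fold. Without full-length 2 the gained count with full-length FOXA2 was 26 of 41, beside 49.4% of all distal regions, and without CTD deletion 1 that with FOXA2 without CTD was 20 of 41, beside 43.1%. Lists cut to equal length gave 0 gained distal regions with either construct, beside 8.47% and 6.64% of all distal regions.

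Of 23 distal regions in the SOX2 set, 9 were gained and 5 lost with SOX2 (39.1% and 21.7%, beside 36.6% and 17.8% of all distal regions). With the fusion 10 were gained and 3 lost (43.5% and 13%, beside 47.9% and 17.3%). Lists cut to equal length gave 20 distal regions, with 8 gains for SOX2 and 5 for the fusion (40% and 25%, beside 30.2% and 35% of all distal regions). In all, 7 were gained with both constructs. A pair of these lay between the PCDHA and PCDHB genes with no entry in the wild type or in any list of the FOXA2 set. At chr5:141017768-141018309 the −log10 p was 10.2 with SOX2 and 11.7 with the fusion, and at chr5:141023308-141024116 it was 14.7 and 18.3. All inputs of both lists were at 10.2 or above at these positions. Beyond the gamma genes, the regions at chr5:141524765-141525144 and chr5:141560676-141561138 in DIAPH1, and at chr5:141701929-141702731, were gained with both, each with a wild-type entry that missed the threshold (−log10 p of 5.05, 4.82 and 4.34). The region at VTRNA1-3, which stood highest in the construct lists of those gained with both (percentile 86.2 in the lower of them), also belonged here, and 1 of its wild-type inputs was at 26.

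Where no entry at any IDR was allowed in the list without a call, SOX2 gained 2 distal regions and the fusion 5, beside 24% and 35.4% of all distal regions. Distal regions lost with both SOX2 constructs, chosen after their values were seen, lay at 2 places. The first, at chr5:141508419-141509680 after the PCDHGC5 start and inside the PCDHG genes, had a −log10 p of 16.3 in the wild type against 5.46 with SOX2 and 5.3 with the fusion, neither called. The other, at chr5:141604097-141604732 in DIAPH1, had 6.52 in the wild type, no entry with SOX2 and 3.62 with the fusion, not called.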

How the data were processed

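Accessibility peaks of 12 U2OS samples in 6 groups were used as deposited. Per the submitters' processing notes, the tools were FastQC 0.10.1, Trim Galore, Bowtie2 2.4.4, SAMtools 0.1.18, MACS2 and deepTools 2.4.1 with build hg38. Duplicate handling and the control are not given in the sources used here. In the FOXA2 set the authors deposited, for each library, the fold enrichment (a ratio) and −log10 p of each peak. In the SOX2 set the deposited score restates the global IDR of entries from 2 inputs, taken to be both samples of the group, and the deposited −log10 p is the lower of theirs. All such peak values are the authors'.

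Genes came from RefSeq (GRCh38.p14). Of 19974 protein-coding genes on chromosomes 1 to 22 and X, 4155 with no strand in the promoter table were left out, except that 6 members lacking one were taken as plus strand, as the other 47. Peaks overlapping the 2 kb window by at least 1 bp and, in the SOX2 set, at a global IDR of at most 0.05 counted as calls. Wild-type members, every gained or lost member and never-called members are named, as are distal regions called in every list of a set or gained (up to 6, by within-list percentile). Python 3.11.15, pandas 2.3.3 and numpy 2.4.6 were used, and the code was tested on simulated lists. Other windows, thresholds, list lengths, controls and left-out libraries were tried. The members and lists were chosen with earlier results of these data known.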

Additional observations from a re-analysis of the deposited data

How the results depend on the processing

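Peak lists hold no depth, the SOX2 set has 1 list a group, and the FOXA2 set has 2 libraries a group whose lists differ in length and threshold, so counts of members move with these. Windows of 1 kb and 500 bp, and summits in place of overlaps, kept every count of member starts within 1.5 times its main value. A window of 5 kb gave 8 members gained with FOXA2 without CTD, 7 with the fusion, and 3 called with SOX2 and not the fusion. Shares over all gene starts were not counted for these windows, so whether members moved differently from all genes is not known. With equal numbers of peaks full-length 1 and 2 called 3 and 0 members, CTD deletion 1 and 2 called 3 and 3, and SOX2 called 11. Gained and lost members were then 0 and 1 with full-length FOXA2, 0 gained with FOXA2 without CTD, 3 and 5 with SOX2, and 1 and 3 with the fusion, with 2 CTD-deletion-only. Distal regions were then 0 gained and 2 lost with full-length FOXA2, 0 and 1 with FOXA2 without CTD, and 5 gained with the fusion. At a common −log10 p of 5.43, full-length 1 called 6 members, CTD deletion 1 and 2 called 5 and 8, 1 was gained with full-length FOXA2 and 2 with FOXA2 without CTD (7.52% and 2.49% of all gene starts). Of 18 distal regions, 0 were then gained and 1 lost with the first (15.8% and 1.15% of all distal regions) and 2 gained and 1 lost with the second (8.37% and 0.924%).

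With the IDR threshold set to 0.01, the wild type of the SOX2 set called 6 members and SOX2 11, with 0 members and 2 distal regions lost with SOX2. With all entries whatever their IDR these lists and the fusion list called 29, 34 and 28 members. Lost members were then 1 with SOX2 and 4 with the fusion, 1 member was fusion-only, and distal regions were 14 gained and 9 lost with SOX2 and 9 lost with the fusion. At an IDR of 0.01 and with all entries, shares over all gene starts and all distal regions were not counted. Where no entry at any IDR was allowed, member changes were 0 in each of the 6 counts, and distal regions were 2 gained and 1 lost with SOX2 and 5 gained and 0 lost with the fusion. Peaks covering at least 50% of a region left 1 distal region gained with full-length FOXA2 and 3 with FOXA2 without CTD. At over 5 kb from starts, 3 distal regions were lost with SOX2. Shares over all distal regions were not counted under either rule. Without the flanks the distal counts were 1 and 2 gained with the FOXA2 constructs, 3 gained and 2 lost with SOX2, and 4 gained and 1 lost with the fusion.

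Against the wild type of the SOX2 set, full-length FOXA2 had 0 members gained, 3 lost and 4 distal regions lost, and FOXA2 without CTD had 1 gained, 1 lost and 3 distal regions lost. Between the 2 lists without mitochondrial peaks, full-length 2 had 5 members gained and 1 distal region lost against wild type 2. Against wild type 1, full-length 1 had 17 gained, 26 distal regions gained and 6 members called in it and in no CTD deletion library. For the comparisons with and without mitochondrial peaks, shares over all gene starts and all distal regions were not counted. Leaving out 1 library in turn gave 3 to 17 members gained with full-length FOXA2 and 5 to 21 with FOXA2 without CTD, with 0 lost. It gave 0 to 6 members full-length only, 0 to 10 CTD-deletion-only (4 without full-length 1), 4 to 26 distal regions gained and 0 to 1 lost with full-length FOXA2, and 7 to 20 gained with FOXA2 without CTD. The highest of these counts came without full-length 2 or without CTD deletion 1, except that the lost region came without full-length 1.

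The fit with every same-numbered pair as a replicate block asks for the same calls and gave 3 and 5 gained and 0 lost, as before. The labels give no shared day or culture. The causes of these differences were not tested beyond the construction of each setting.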

Other observations

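Other protocadherins and the genes around the cluster were counted in the same way, in lists that called 37.8% and 36.3% (wild types), 68.1% and 57.6% (full length), 52.7% and 68.1% (CTD deletion) and 57.3%, 59.6% and 55.1% (SOX2 set) of all gene starts. The 10 non-clustered protocadherins tested, each with a promoter of its own outside the cluster, were called 3 and 2 times in the libraries labelled wild type, 8 and 6 with full-length FOXA2, 4 and 8 with FOXA2 without CTD, and 9, 5 and 8 times in the wild-type, SOX2 and fusion lists of the SOX2 set. The 16 neighbouring genes were called 7, 2, 12, 10, 11 and 12 times in the FOXA2 set and 11, 12 and 12 times in the SOX2 set. Of 14 genes for CTCF, cohesin and silencing factors known to act at the cluster, 8 were called in each library labelled wild type and 13 or 14 in every other list. The 3 classical cadherins tested, CDH2, CDH4 and CDH8, had 0 calls in the 3 wild-type lists, 2 and 0 with full-length FOXA2, 0 and 1 with FOXA2 without CTD, and 3 each in the SOX2 and fusion lists, which fell to 1 each at equal list length.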
